A study of Mus musculus with 4 samples.

Results

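The 35 genes described here are genes of the B cell lineage, read in RNA-seq libraries of sorted splenic CD4+ T cells from C57BL/6 mice. They were taken from a list of B cell receptor components, transcription factors, kinases, surface receptors and secretory genes, matched by gene symbol among the 55367 symbols of the count tables, and all 35 were found with at least 1 count. The series held 4 libraries, WT 1 and WT 2 labelled wild type, and cKO 1 and cKO 2 labelled *Satb1* conditional knockout. The study obtained its conditional knockout by crossing mice with a floxed *Satb1* allele to *Thpok-cre*, which acts in the CD4 lineage, and the labels of the WT libraries name no allele. The question was how far B cell transcripts were present in each library, and whether cKO 1 and cKO 2, which share a genotype label, differed in them. The study calls its replicates biological, but the labels do not tie libraries to animals, and p-values measure only the spread between these libraries.

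B cells carry an antigen receptor made of immunoglobulin heavy and light chains, held at the membrane together with the signalling chains CD79A and CD79B. The transcription factors EBF1 and PAX5 establish and maintain B cell identity, and kinases of the SRC, SYK and TEC families relay the receptor signal through adaptors. CD4+ T cells use a T cell receptor in place of this complex, and the heavy chain and light chain V segments are joined to constant regions in the B lineage. Several genes on the list are not restricted to B cells. 15 of the 35, among them *Syk*, *Lyn*, *Btk*, *Mef2c* and *Hvcn1*, were marked as also known in myeloid or T cells. The absence of this mark does not make the other 20 specific to B cells.

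Total gene counts ran from 4495902 to 6555699 per library, so 3 counts, taken as the floor, corresponded to 0.457 to 0.669 CPM, the count per 1e+06 gene counts after scaling of the library sizes. T cell markers were high throughout, with *Cd3e* between 785 and 962 CPM, *Cd4* between 1177 and 1273 CPM and *Cd8a* between 4.23 and 6.83 CPM. The *Satb1* count did not separate the genotypes, at 5677 and 4390 counts in the libraries labelled WT and 4958 and 3986 in the libraries labelled cKO, so each direction below follows the labels. *Foxp3*, the regulatory T cell factor, did separate them, at 141 and 120 CPM in WT and 404 and 545 CPM in cKO (log2 fold change 1.86, SE 0.16, edgeR adjusted p = 0.000447). *Xist* gave 5447 and 4235 counts in WT but 9 and 6 in cKO, so sex pattern and genotype label cannot be told apart.

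Expression of the 35 genes fell into a few abundant genes and many scarce ones. Per kilobase of exon, *Ighm*, the constant region of the IgM heavy chain, was the most abundant, at 308 and 235 RPKM in WT and 307 and 237 RPKM in cKO. The next gene depended on the library. *Hvcn1*, a voltage-gated proton channel, was at 50.6, 44.5, 37.7 and 35 RPKM in WT 1, WT 2, cKO 1 and cKO 2. *Igkc*, the constant region of the kappa light chain, was at 11.7, 47.0, 121 and 37.4 RPKM, below *Hvcn1* in WT 1 and above it in the other 3 libraries. *Pou2af1* ran from 7.89 to 19.5 RPKM and *Cd72* from 18.5 to 21.4 RPKM. *Ralgps2*, an exchange factor for the Ras-like GTPase RalA, was at 5.20 to 6.37 RPKM. *Ighm* alone took 50.5% to 58.3% of the counts of the 35 genes, and *Ighm*, *Hvcn1*, *Ralgps2*, *Cd72* and *Pou2af1* together took 79.6% to 94.8%.

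The sum over the list was therefore made up mostly of these 5 genes. Summed over the 35 genes, expression was 997 CPM in WT 1, 876 CPM in WT 2, 1091 CPM in cKO 1 and 820 CPM in cKO 2. The groups overlapped. The sum in cKO 1 was 1.33 times that in cKO 2, with a 95% exact interval of 1.28 to 1.39 that covers counting error only. With 1 library on each side of this ratio there is no replicate check and no test.

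The sum behaved otherwise when the genes were divided by abundance, a division chosen after the values were seen. The 7 genes with a mean of at least 10 CPM over the 4 libraries, *Ighm*, *Hvcn1*, *Ralgps2*, *Cd72*, *Pou2af1*, *Igkc* and *Cd24a*, summed to 959, 832, 943 and 754 CPM in WT 1, WT 2, cKO 1 and cKO 2. The other 28 summed to 38.4, 44.6, 148 and 66.2 CPM in the same order. In these 28 both cKO libraries stood above both WT libraries, and cKO 1 was 2.23 times cKO 2 (exact counting interval 1.96 to 2.56). The WT libraries differed less, with WT 1 at 0.860 times WT 2 and an interval of 0.712 to 1.04. cKO 1 was the highest library for 25 of the 28 and cKO 2 for the other 3. cKO 1 lay above both WT libraries in 28 of 28 and cKO 2 in 16 of 28. For these counts no share over all genes was taken, so they describe the 28 genes and are no support for a difference. As a share of all gene counts the 28 genes came to 0.0145% in cKO 1 (exact interval 0.0135 to 0.0156) and 0.00676% in cKO 2 (0.00603 to 0.00756). From bulk RNA, more cells of a type and more RNA per cell cannot be told apart. Apart from *Igkc*, the abundant genes did not follow the scarce ones, so the sum over the whole list is not used below as a measure of B cell RNA, and B cell genes names the list, not the cells that held the RNA.

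**Figure D1:**
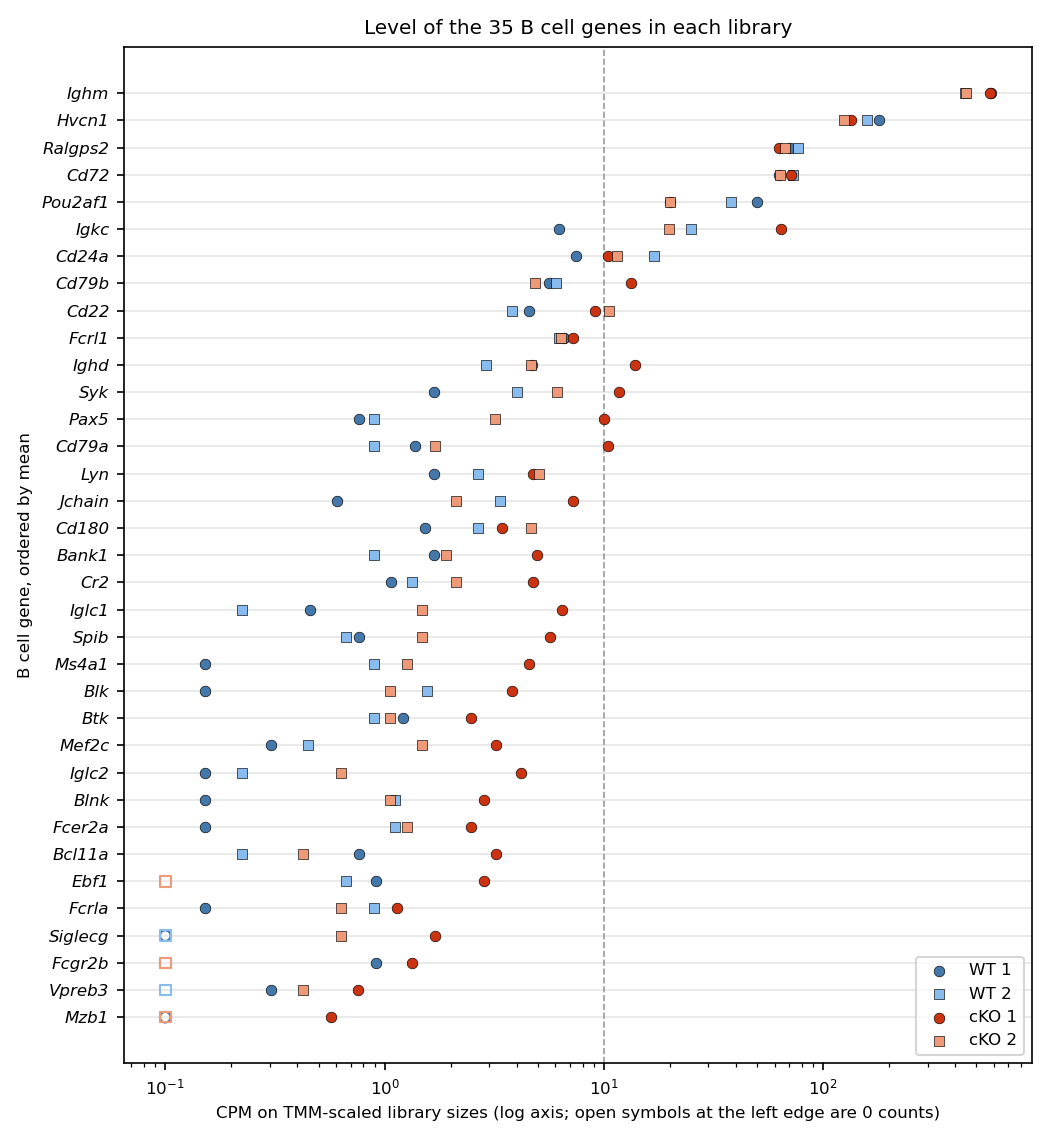
Level of each of the 35 B cell genes in CPM on a log axis, 1 symbol per library, with genes ordered by their mean and open symbols at the left edge for 0 counts. The dashed line marks 10 CPM; for 25 of the 28 genes with a mean below it cKO 1 lies furthest to the right, whereas among the 7 genes at the top only *Igkc* has cKO 1 well to the right of the other libraries.

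Between the cKO libraries, 31 of the 35 genes had at least 10 counts over the pair, and 19 of these were at least 2-fold higher in cKO 1. Of all 13696 genes with that many counts, 3.62% were at least 2-fold higher in cKO 1 and 3.88% at least 2-fold higher in cKO 2. None of the 31 was at least 2-fold higher in cKO 2. The median ratio of the 31 was 2.59. Scarce genes pass a 2-fold limit more often through counting error alone, so the same count was taken among genes with 10 to 100 counts over the pair. There 18 of 24 B cell genes were at least 2-fold higher in cKO 1 and 0 in cKO 2, against 9.73% and 10.6% of the 4644 genes of that range. Between the WT libraries, 0 of 19 genes were at least 2-fold higher in WT 1 and 4 in WT 2, against 2.39% and 2.81% of all genes.

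**Figure D2:**
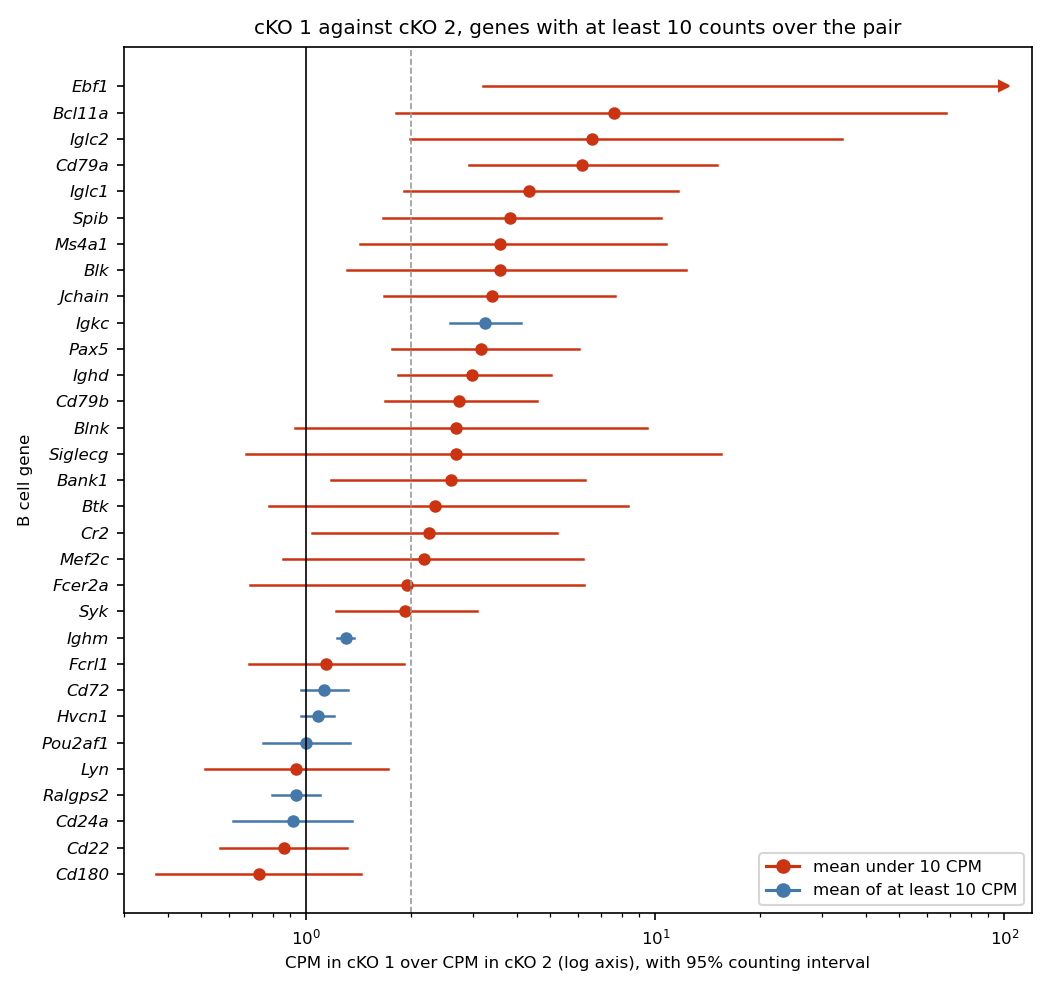
Ratio of CPM in cKO 1 to CPM in cKO 2 on a log axis for the 31 genes with at least 10 counts over the pair, with 95% exact counting intervals, and an arrow for *Ebf1*, which had 0 counts in cKO 2. The intervals of 15 of the 24 scarce genes (red) lie above 1 and none lies below it, and *Igkc* stands apart from the other abundant genes (blue).

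The components of the B cell receptor, other than *Ighm*, were highest in cKO 1. *Cd79a* (chromosome 7, 24897381 to 24902197, GRCm38), one of the signalling chains, had 9, 4, 55 and 8 counts in WT 1, WT 2, cKO 1 and cKO 2, or 1.37, 0.892, 10.4 and 1.69 CPM. cKO 2 lay near the WT libraries and cKO 1 was 6.16-fold above it (2.92 to 15.0). *Cd79b*, the partner chain (chromosome 11, 106311341 to 106314762), was at 5.64, 6.02, 13.3 and 4.87 CPM. Here cKO 2 was the lowest library and cKO 1 the highest, with a ratio of 2.73 (1.68 to 4.58). *Ighd*, the constant region of IgD, which mature naive B cells carry beside IgM, was at 4.72, 2.90, 13.8 and 4.66 CPM, and the cKO ratio was 2.98 (1.83 to 5.03).

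The kappa light chain differed more between the cKO libraries than IgM did. *Igkc* (chromosome 6, 70726435 to 70726966) was at 6.25, 25.0, 64.5 and 19.9 CPM. The cKO ratio was 3.24 (2.57 to 4.12), but WT 2 also exceeded cKO 2, and WT 1 was 0.250 times WT 2. *Ighm* (chromosome 12, 113418558 to 113422730) was at 581, 443, 579 and 446 CPM. Its cKO ratio of 1.30 (1.23 to 1.37) was about the ratio between the WT libraries, 1.31. *Ighm* therefore stood at the same pair of levels in each genotype, and its counts exceeded those of *Cd79a* 424-fold, 496-fold, 55.5-fold and 264-fold in WT 1, WT 2, cKO 1 and cKO 2. *Ighm* counts exceeded *Ighd* counts 123-fold and 153-fold in WT, 41.8-fold in cKO 1 and 95.9-fold in cKO 2.

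The lambda light chain constant regions *Iglc1* and *Iglc2* were near the floor in WT. *Iglc1* had 3, 1, 34 and 7 counts and *Iglc2* 1, 1, 22 and 3 counts in WT 1, WT 2, cKO 1 and cKO 2. cKO 1 exceeded cKO 2 by 4.35-fold (1.90 to 11.6) for *Iglc1* and by 6.57-fold (1.98 to 34.3) for *Iglc2*. Because the lambda genes are close copies of each other, and reads that align to several places are not counted, their sequences are set side by side to show how far a read of 50 bases can place them. Each run below covers 150 bases of the constant region exon, read 5′ to 3′ on the minus strand of GRCm38 chromosome 16, with capitals at the 36 positions where the 3 genes differ: *Iglc1* at chr16:19061913-19062062, *Iglc2* at chr16:19198694-19198843 and *Iglc3*, a lambda gene outside the list, at chr16:19065523-19065672.
Iglc1: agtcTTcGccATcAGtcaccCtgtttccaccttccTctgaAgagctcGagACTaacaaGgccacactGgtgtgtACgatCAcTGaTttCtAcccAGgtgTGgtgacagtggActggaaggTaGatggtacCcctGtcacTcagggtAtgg
Iglc2: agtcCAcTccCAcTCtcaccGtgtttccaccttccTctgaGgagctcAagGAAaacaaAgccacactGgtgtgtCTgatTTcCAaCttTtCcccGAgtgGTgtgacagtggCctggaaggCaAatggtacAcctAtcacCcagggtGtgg
Iglc3: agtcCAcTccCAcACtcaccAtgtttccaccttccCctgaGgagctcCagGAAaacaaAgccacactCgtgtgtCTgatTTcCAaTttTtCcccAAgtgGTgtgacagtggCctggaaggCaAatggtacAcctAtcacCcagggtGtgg
Over these 150 bases *Iglc2* and *Iglc3* shared 143, and *Iglc1* shared 116 with *Iglc2* and 117 with *Iglc3*. Of the possible stretches of 50 bases in each exon, 100% were unique to *Iglc1* among the 3 genes, 89.5% to *Iglc2* and 89.3% to *Iglc3*. Most reads can thus be placed, and the counts of *Iglc2* and *Iglc3* leave out the stretches they share. *Iglc3* had 0, 4, 15 and 3 counts. *Igkc* counts exceeded the sum of the lambda genes 10.3-fold in WT 1, 18.7-fold in WT 2, 4.79-fold in cKO 1 and 7.23-fold in cKO 2.

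Reads over immunoglobulin V segments and switched heavy chain constant regions, none of them on the list, gave a readout with little signal in WT. The 346 V segment genes summed to 5.79, 10.7, 52.0 and 14.2 CPM in WT 1, WT 2, cKO 1 and cKO 2, and 93 of them had a count in cKO 1 against 33 in cKO 2. The cKO ratio of the sum was 3.67 (2.80 to 4.86). The 6 switched constant regions had 0, 6, 82 and 5 counts, a ratio of 14.7 between the cKO libraries with a wide interval of 6.05 to 46.5. *Ighg3*, the constant region of IgG3, had 0, 3, 29 and 0 counts. V segments were not the same in both cKO libraries, with 15 counts of *Igkv5-48* in cKO 1 against 0 in cKO 2, and 14 of *Igkv16-104* in cKO 2 against 0 in cKO 1.

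Transcription factors of the B lineage held the pair of genes that passed the test between genotypes, in opposite directions. *Pax5* (chromosome 4, 44524757 to 44710487), the factor that commits cells to the B lineage, had 5, 4, 53 and 15 counts, or 0.762, 0.892, 10.05 and 3.17 CPM. Both cKO libraries lay above both WT libraries, with a cKO ratio of 3.17 (1.76 to 6.05). *Pax5* was higher in the libraries labelled cKO by 3.0 on the log2 scale with an SE of 0.66 (edgeR quasi-likelihood test, adjusted p = 0.0407). Both WT libraries were below the level needed to enter the test, so *Pax5* was tested through the cKO libraries alone, and the call was lost without cKO 1 (log2 fold change 1.93, edgeR adjusted p = 0.0919) and without WT 2 (3.09, edgeR adjusted p = 0.138).

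*Pou2af1* (chromosome 9, 51213708 to 51240080), which encodes the coactivator OCA-B of octamer-binding factors, had 327, 171, 106 and 95 counts. This corresponded to 49.8 and 38.2 CPM in WT and 20.1 and 20.1 CPM in cKO, with no overlap between the groups and a cKO ratio of 1.0 (0.75 to 1.33). *Pou2af1* was lower in the libraries labelled cKO, with a log2 fold change of -1.14, an SE of 0.17 and an edgeR adjusted p of 0.00900. The call was kept when any library was left out, with a log2 fold change between -1.31 and -0.92.

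The remaining factors were scarce and most counts came from cKO 1. *Spib*, an ETS factor of B cells and plasmacytoid dendritic cells, was at 0.762, 0.669, 5.69 and 1.48 CPM, with a cKO ratio of 3.84 (1.65 to 10.4). *Ebf1*, which acts with PAX5 early in the lineage, had 6, 3, 15 and 0 counts, so cKO 1 was at least 4.48-fold above the floor of 3 counts in cKO 2. *Bcl11a* had 5, 1, 17 and 2 counts, and its cKO ratio of 7.62 had an interval of 1.81 to 68.0. *Mef2c* had 2, 2, 17 and 7 counts with an interval from 0.858 to 6.21 that held 1. *Ebf1* and *Bcl11a* in cKO 2 did not exceed both WT libraries, whereas *Spib* and *Mef2c* did.

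The annotated promoters of *Cd79a* and *Pou2af1* are shown as examples of a gene much higher in cKO 1 than in cKO 2 and of the gene called lower in the libraries labelled cKO. Both are RefSeq windows on GRCm38.p6 of 300 bases on the plus strand, from 250 before the annotated start, at chr7:24897247-24897546 and chr9:51213440-51213739. Capitals mark GAGGAA on either strand, the core of a PU box, which ETS factors such as PU.1 and SPIB bind.
Cd79a: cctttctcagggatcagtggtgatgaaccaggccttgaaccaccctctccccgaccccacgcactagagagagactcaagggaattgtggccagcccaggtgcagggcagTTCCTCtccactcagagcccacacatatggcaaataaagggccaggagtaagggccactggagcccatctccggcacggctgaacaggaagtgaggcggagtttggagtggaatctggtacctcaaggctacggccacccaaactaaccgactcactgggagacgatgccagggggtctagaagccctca
Pou2af1: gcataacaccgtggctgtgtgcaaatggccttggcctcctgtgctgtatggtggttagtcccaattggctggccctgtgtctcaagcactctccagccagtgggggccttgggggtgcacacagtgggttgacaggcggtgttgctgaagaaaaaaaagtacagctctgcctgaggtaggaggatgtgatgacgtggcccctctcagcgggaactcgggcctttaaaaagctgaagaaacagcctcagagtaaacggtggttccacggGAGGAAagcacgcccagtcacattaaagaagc
The match began at position -140 in *Cd79a* and at position 19 in *Pou2af1*, counted from the start. Promoter windows were found for 23 of the 35 genes, and the first window listed for each gene was searched. GAGGAA was present in 8 of the 23 and in 28.3% of 27025 promoters. The octamer ATGCAAAT was present in *Blnk* and *Vpreb3* and in 1.75% of all promoters, and CCCNNGGG, a core bound by EBF1, in *Spib*, *Bank1* and *Cd22* and in 13.4% of all promoters. These matches describe letters in a window, and matches on both strands were counted.

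Kinases and adaptors of the receptor pathway divided into genes highest in cKO 1 and a gene at about the same level in both cKO libraries. *Syk*, the kinase recruited to phosphorylated CD79 chains, was at 1.68, 4.02, 11.8 and 6.14 CPM with no overlap between genotypes. The log2 fold change of 1.74 (SE 0.47) did not pass the test (edgeR adjusted p = 0.0828), and the cKO ratio was 1.92 (1.22 to 3.09). *Lyn*, a SRC family kinase of B and myeloid cells, was at 1.68, 2.68, 4.74 and 5.08 CPM. *Lyn* did not follow cKO 1, with a ratio of 0.934 (0.512 to 1.71), and its log2 fold change of 1.21 with an SE of 0.39 did not pass (edgeR adjusted p = 0.136).

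*Blk*, the SRC family kinase most restricted to B cells, had 1, 7, 20 and 5 counts and a cKO ratio of 3.59 (1.31 to 12.2). *Bank1*, a scaffold that binds the receptor kinases, had 11, 4, 26 and 9 counts and a ratio of 2.59 (1.18 to 6.28). In both genes cKO 1 was the highest library, and cKO 2 fell within the WT range for *Blk* and just above it for *Bank1*. *Btk*, the X-linked TEC kinase, and the adaptor *Blnk* had at most 15 counts in any library, ratios of 2.33 and 2.69, and intervals that held 1.

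Surface receptors showed all of these patterns. *Ms4a1*, which encodes CD20, had 1, 4, 24 and 6 counts, or 0.152, 0.892, 4.55 and 1.27 CPM, and a cKO ratio of 3.59 (1.43 to 10.7). *Cr2*, the complement receptor CD21, had 7, 6, 25 and 10 counts and a ratio of 2.24 (1.04 to 5.23). In both genes cKO 1 was highest and cKO 2 stood above both WT libraries. *Cr2*, like *Pax5*, entered the test through the cKO libraries alone, with a log2 fold change of 1.54, an SE of 0.53 and an edgeR adjusted p of 0.160.

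*Cd22*, an inhibitory sialic acid-binding receptor, and *Cd180*, a Toll-like receptor relative, differed from *Ms4a1* in being highest in cKO 2. *Cd22*, of whose exonic bases 9.5% overlap the gene model *Gm29439*, was at 4.57, 3.79, 9.11 and 10.6 CPM. Both cKO libraries lay above both WT libraries with a cKO ratio of 0.861 (0.567 to 1.31), and the log2 fold change of 1.21 with an SE of 0.29 fell just outside the threshold (edgeR adjusted p = 0.0529). *Cd180* was at 1.52, 2.68, 3.42 and 4.66 CPM with a ratio of 0.734 (0.371 to 1.43). The groups did not overlap, and the log2 fold change of 0.98 with an SE of 0.43 did not pass (edgeR adjusted p = 0.264).

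*Cd72*, *Fcrl1* and *Cd24a* did not separate the genotypes. *Cd72*, a coreceptor with an inhibitory motif, was at 63.2, 73.2, 71.7 and 63.7 CPM, a log2 fold change of -0.0046 with an SE of 0.13 (edgeR adjusted p = 0.992). Exons of *Tesk1* overlapped 41.6% of its exonic bases, and without a stated strand setting reads there cannot be told apart. *Fcrl1*, an Fc receptor-like protein, was at 6.55, 6.25, 7.21 and 6.35 CPM with a cKO ratio of 1.14 (0.685 to 1.90). *Cd24a*, a glycoprotein of immature B cells and other blood cells, was at 7.47, 17, 10.4 and 11.4 CPM, and WT 1 and WT 2 differed more than the genotypes did. The other 4 surface genes, *Fcer2a*, *Fcrla*, *Siglecg* and *Fcgr2b*, had at most 13 counts in any library. *Siglecg*, an inhibitory lectin, was at 0 counts in both WT libraries and at 9 and 3 in cKO 1 and cKO 2.

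Among the secretory and other genes, *Jchain*, which joins IgM and IgA into polymers, followed *Igkc*. It had 4, 15, 38 and 10 counts, or 0.609, 3.35, 7.21 and 2.12 CPM, with a cKO ratio of 3.41 (1.67 to 7.67) and a WT ratio of 0.182. In both *Jchain* and *Igkc*, WT 1 was lowest and WT 2 lay above cKO 2. *Mzb1*, a chaperone of immunoglobulin assembly, had 3 counts in cKO 1 and 0 elsewhere, and *Vpreb3* had at most 4 counts in any library.

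*Hvcn1* and *Ralgps2* were lower in both cKO libraries than in both WT libraries without passing the test. *Hvcn1* was at 180 and 159 CPM in WT and 134 and 125 CPM in cKO, a log2 fold change of -0.39 with an SE of 0.11 (edgeR adjusted p = 0.0878). Exons of *Tctn1* overlapped 44.2% of its exonic bases. *Ralgps2* was at 70.5 and 77.0 CPM in WT and 62.8 and 67.3 CPM in cKO, a log2 fold change of -0.18 with an SE of 0.11 (edgeR adjusted p = 0.449). Their cKO ratios, 1.08 (0.963 to 1.2) and 0.933 (0.798 to 1.09), had intervals that held 1.

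Compared between genotypes over the whole table, 17 of the 35 genes had enough counts to be tested, with 1 call upward and 1 call downward in cKO. Of all 12403 genes tested, 2.35% were called higher and 1.95% lower (edgeR quasi-likelihood test, Benjamini-Hochberg adjustment, adjusted p under 0.05). Both cKO libraries lay above both WT libraries for 6 of the 17 and below them for 3, against 24.8% and 25.5% of all genes tested, and for the other 8 the groups overlapped. With 17 genes these counts are not far from the background. Their median log2 fold change was 0.98, with 12 of 17 above 0, against a median of -0.0015 over all genes tested. Without *Pax5* and *Cr2*, which entered the test through the cKO libraries alone, it was 0.66, so the median describes the genes that passed the filter and no more. Over the same 17 genes it was 0.24 without cKO 1, 1.10 without cKO 2, 0.59 without WT 1 and 0.98 without WT 2. Without cKO 1, 3 of 17 tested genes were called, when 11.7% of all genes were. Without cKO 2, 19 of 30 tested genes were called, 17 of them higher, when 13.8% of all genes were. The 13 genes added to the test there passed its filter through cKO 1 alone, so that count describes where the genes were high and is no support for a difference.

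**Figure D3:**
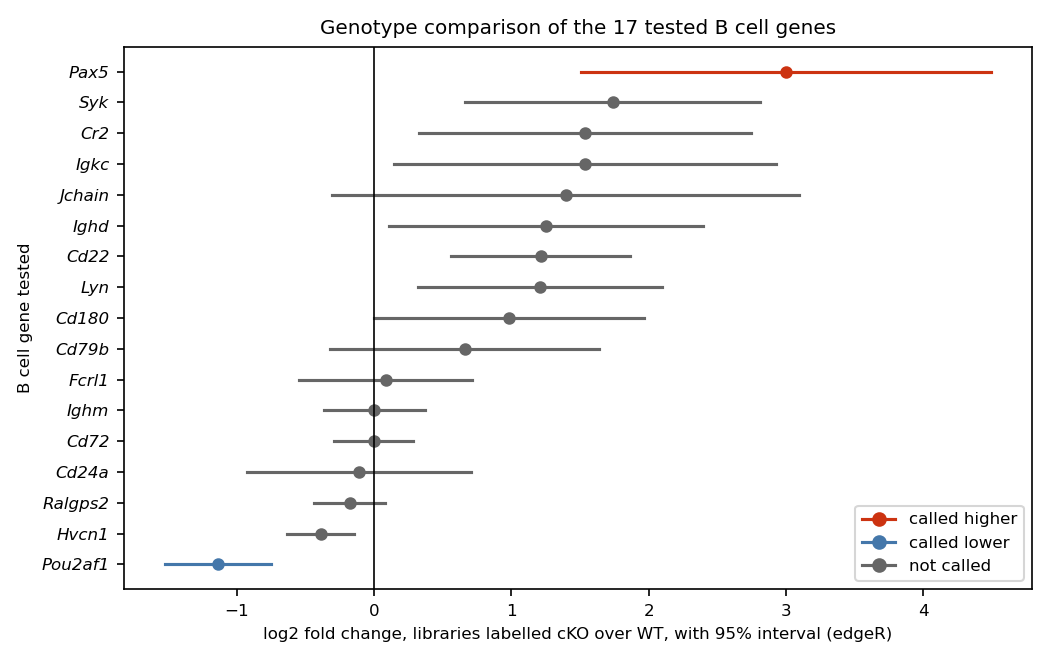
Log2 fold change of the 17 tested B cell genes, libraries labelled cKO over WT, with 95% intervals from the edgeR fit on 2 libraries per genotype. *Pax5* (red) was called higher and *Pou2af1* (blue) lower, and the genes in grey did not pass the adjusted threshold of 0.05.

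The genes with no genotype test numbered 18, and all were scarce. *Cd79a*, *Ms4a1*, *Spib*, *Iglc1*, *Iglc2*, *Blk* and *Bank1* were among them, each with its highest level in cKO 1. In CPM, cKO 2 stood above both WT libraries in *Cd79a*, *Ms4a1*, *Spib*, *Iglc1*, *Iglc2* and *Bank1*, with at most 9 counts in each.

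The scarce genes did not keep a single ratio between the cKO libraries. Of the 24 with at least 10 counts over the pair, the intervals of 18 held the summed ratio of 2.23, those of *Cd22*, *Lyn*, *Cd180* and *Fcrl1* lay below it and those of *Cd79a* and *Ebf1* lay above it. Of the 7 abundant genes, 6 had intervals below 2.23 and *Igkc* had one above. At least 4-fold higher levels in cKO 1 were seen for 99 of the genes with at least 10 counts over the pair, and 5 of them were on the list, *Bcl11a*, *Cd79a*, *Ebf1*, *Iglc1* and *Iglc2*. In the other direction there were 95 such genes and 0 on the list.

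Other B cell and plasma cell genes, not on the list, held both kinds of gene. Of 36 such genes, 35 were in the tables and 21 were tested. *Cd69* and *Tcf4* were called higher and *Cd86* lower, against 2.35% and 1.95% of all genes tested. *Fcmr*, the IgM Fc receptor, had 3, 5, 45 and 9 counts in WT 1, WT 2, cKO 1 and cKO 2, and was highest in cKO 1. *Tnfrsf13c*, the BAFF receptor, had a cKO ratio of 0.971. Of the 29 with at least 10 counts over the cKO pair, 9 were at least 2-fold higher in cKO 1 and 0 in cKO 2. Among all genes with that many counts the shares were 3.62% and 3.88%. The median ratio of the 29 was 1.35. The most abundant, *Cd37*, *Cd69* and *Btla*, are also found on T cells, and their cKO ratios were 1.18, 1.44 and 0.892. *Cd69* was at 135, 126, 267 and 186 CPM (log2 fold change 0.79, SE 0.16, edgeR adjusted p = 0.0292).

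Markers of other cell types moved between the same libraries. The 11 MHC class II genes, used by B cells, dendritic cells and macrophages to present antigen, summed to 146, 160, 354 and 186 CPM, with all 11 detected in WT 1, WT 2 and cKO 1 and 10 in cKO 2. Of the 8 tested, 1 was called higher and 0 lower, against 2.35% and 1.95% of all genes tested. *Cd74*, the invariant chain, was higher in the libraries labelled cKO, at 22.9, 27.0, 114 and 46.6 CPM (log2 fold change 1.71, SE 0.36, edgeR adjusted p = 0.0338), and *H2-Aa* was at 2.89, 6.25, 26.8 and 8.25 CPM. The cKO ratio was 2.46 for *Cd74* and 3.24 for *H2-Aa*. Both cKO libraries lay above both WT libraries for 6 of the 8 tested, against 24.8% of all genes tested. Of the others *H2-Oa* was at 15.8, 11.6, 15.0 and 7.83 CPM and *H2-DMa* at 42.8, 49.3, 55.4 and 37.9 CPM, and *H2-Eb2*, not tested, had 6, 2, 2 and 0 counts.

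The 15 myeloid genes summed to 231, 253, 381 and 309 CPM, and 6 of the 12 tested, *Lyz2*, *Cybb*, *S100a9*, *Ltf*, *Ngp* and *Mpeg1*, were called higher in the libraries labelled cKO and 0 lower, against 2.35% and 1.95% of all genes tested. *S100a9*, *Ltf* and *Ngp* entered the test through the cKO libraries alone, as *Pax5* did. *Itgam*, an integrin of myeloid cells, went the other way without passing, at 2.13, 2.23, 1.33 and 1.06 CPM, and *Cd68* was at 5.48, 6.25, 6.07 and 3.39 CPM. *Ltf*, a granule protein of neutrophils, had 0, 1, 36 and 29 counts, with a cKO ratio of 1.11. *Lyz2* had a cKO ratio of 2.54 (1.77 to 3.70). Of the 14 myeloid genes with at least 10 counts over the cKO pair, 5 were at least 2-fold higher in cKO 1 and 0 in cKO 2. The shares over all genes with that many counts were 3.62% and 3.88%. The median ratio of the 14 was 1.81. A count was seen for 9 of the 15 in WT 1 and for all 15 in each other library. *Csf1r*, the macrophage growth factor receptor, was at 17.7, 19.9, 38.1 and 18.8 CPM, and *Cd14* had at most 7 counts. The 6 red cell genes went the other way between the cKO libraries, with sums of 101, 313, 10.1 and 221 CPM and a ratio of 0.0455. The 10 T cell genes summed to 7415, 7448, 8312 and 7329 CPM, with a cKO ratio of 1.13. The part of other cells in the B cell gene levels was not tested.

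**Figure D4:**
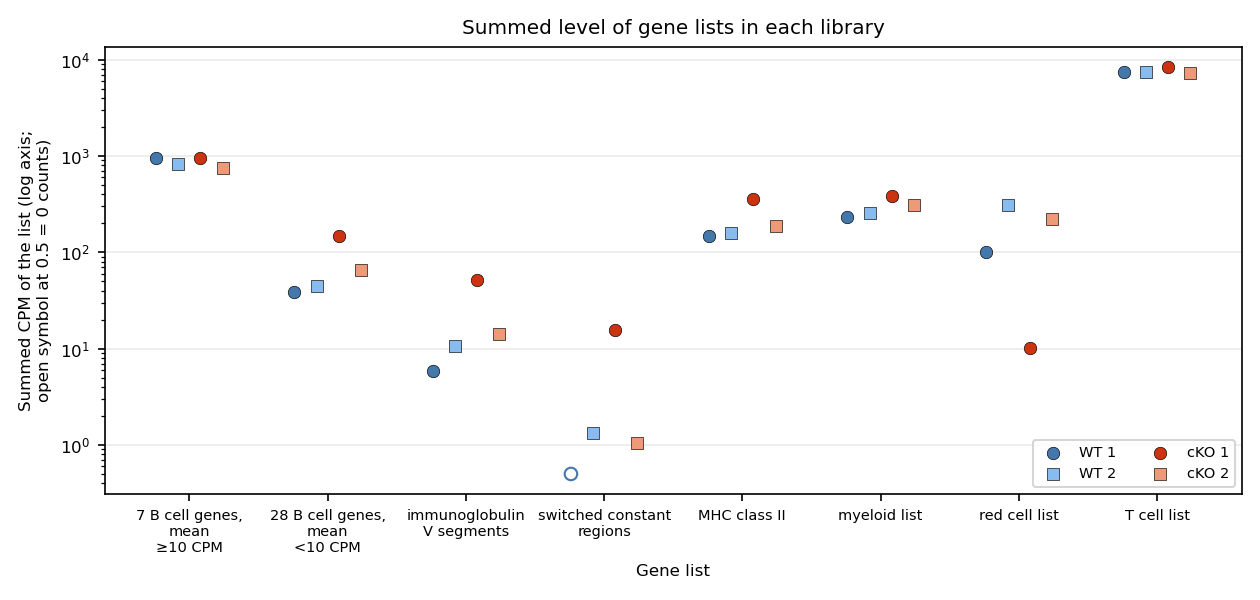
Summed CPM of gene lists on a log axis, 1 symbol per library, with an open symbol at the lower edge for a sum of 0 counts. cKO 1 is the highest library for the 28 scarce B cell genes, the V segments and the switched constant regions. It is also the highest for the MHC class II, myeloid and T cell lists, and the lowest for the red cell list.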

How the data were processed

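RNA was extracted from sorted splenic CD4+ T cells of 4 samples, and libraries were prepared with a NEBNext Ultra kit (Ultra in the labels, Ultra II in the study's methods) and sequenced as 50-base reads. The authors aligned reads to mm10 with HISAT2 2.1.0 and deposited HTSeq 0.11.1 read counts per gene symbol, unscaled, per the labels. The annotation and the strand setting are not given in the sources used here.

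Samples were grouped by their labels. Counts were analysed in R 4.3.3 with edgeR 4.0.16 (filterByExpr, TMM, quasi-likelihood F test on genotype, two-sided, Benjamini-Hochberg adjustment over all 12403 tested genes, threshold 0.05). CPM used TMM-scaled library sizes, and RPKM divided CPM by exonic length from GENCODE M21 (GRCm38). The 2 cKO libraries were compared as CPM ratios with exact conditional binomial 95% intervals, without a p-value. Intervals and floors cover counting error only, since no molecular identifiers were used and reads can copy a molecule. All 35 genes are named, by role. Genes below 20 counts in every library are given by counts or ranges. The genes and the lists of other cell types were chosen with earlier results of these data known. With 2 against 2 libraries an exact permutation test cannot give a p below 0.333. The fit was tested on simulated data. Alternatives varied scaling, test (DESeq2 1.42.0), filter, replicate block, genes summed, minimum counts and libraries.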

Additional observations from a re-analysis of the deposited data

How the results depend on the processing

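The number of B cell genes called between genotypes was 2 in edgeR, with RLE or total-count scaling, with a filter of 1 CPM and in DESeq2. Without a low-count filter 16 of 35 were called, 14 higher and 2 lower (5.72% of all genes), and the median log2 fold change over those tested was 1.38 in place of 0.98. Leaving out 1 library gave 2 to 19 calls, with 1.39% to 13.8% of all genes called, and medians from 0.24 to 1.92 over the 17 or 30 genes then tested, or 0.24 to 1.10 over the same 17. The upper ends come from the fit without cKO 2, where 13 more genes entered through cKO 1 alone. The lone library left is then assumed to vary like the other genotype. The replicate block gave 7 calls, 5 higher and 2 lower (1165 of all genes, against 533 without it), but same-numbered libraries share only a number (correlation of deviations 0.0642).

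The summed cKO ratio of 1.33 was 1.21 without immunoglobulin genes and *Jchain*. It was 2.23 for the 28 genes with a mean under 10 CPM, chosen after seeing the data. It was 1.45 without the 15 genes marked as also known in myeloid or T cells, where *Ighm* gave 3053 of the 4029 counts in cKO 1. With at least 30 counts, 11 of 22 genes passed 2-fold, but no share over all genes was taken at that minimum.

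Of 170 alternative values for single genes, 137 kept direction and side of the threshold. 23 passed it, 2 lost it (*Pax5*) and 8 changed sign: log2 fold changes ran over the left-out libraries from -0.26 to 1.19 for *Cd79b*, -0.20 to 0.22 for *Ighm* (-0.0045 without the filter), -0.11 to 0.096 for *Cd72*, -0.018 to 0.17 for *Fcrl1* and -0.63 to 0.54 for *Cd24a*. None of these 5 had passed the test. Depth limited 11 genes, below 20 counts in every library.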

Other observations

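The NK cell and CD8 T cell lists summed lower in both cKO libraries than in both WT libraries. The summed CD8 T cell genes had a cKO ratio of 1.28 (1.01 to 1.62). The 4 NK cell genes summed to 43.6 and 33.7 CPM in WT and 13.7 and 17.4 CPM in cKO, mostly from *Eomes*, a T-box factor of NK and memory CD8+ T cells, which was called lower in the libraries labelled cKO (log2 fold change -1.38, SE 0.22, edgeR adjusted p = 0.0113). *Ncr1*, the NK cell receptor NKp46, had at most 3 counts in any library. *Klrb1c*, also on the NK cell list, had 24, 7, 11 and 2 counts in WT 1, WT 2, cKO 1 and cKO 2. Its cKO ratio was 4.93 (1.08 to 45.8). *Cd8b1* was called lower, with a log2 fold change of -0.91, an SE of 0.17 and an edgeR adjusted p of 0.0201, while *Cd8a* was not called. Among the dendritic cell genes *Ccr9*, a gut-homing receptor also found on T cells, was called lower (log2 fold change -1.23, SE 0.17, edgeR adjusted p = 0.00626), and *Flt3* had at most 3 counts. The platelet gene *Pf4* had at most 4 counts.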
